A study of Mus musculus with 21 samples.

Results

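This set holds 34 mouse genes that mark neurons and synapses, called members below, read in RNA sequencing libraries of primary brain microglia. Their rows were taken by gene symbol, and the genes were chosen with earlier results of these data known. All 34 symbols were listed in both deposited tables, among 54532 symbols in each. By role they fall into 7 groups, which are axonal and dendritic cytoskeleton (8 genes), synaptic vesicle and release (7), glutamate receptors and postsynaptic density (6), calcium-calmodulin signalling and activity-regulated genes (5), transmitter identity (3), RNA binding (2), and surface and other neuronal proteins (3). The study asked how loss of Trem1, a receptor of myeloid cells that amplifies inflammatory signals, alters microglial gene expression in aging and in the 5XFAD model of Alzheimer's disease. The aging table has 12 libraries, 3 a group, of wild type and Trem1-/- mice that are each either young or aged. The 5XFAD table has 9 libraries of adult mice, 3 a group, which are wild type, 5XFAD, or 5XFAD crossed to Trem1+/- (5XFAD Trem1+/- below). The labels give age only as these words, with no months, and describe neither the isolation of the cells nor separate animals behind the libraries of a group, so the p-values measure only the spread between samples. In 5XFAD mice, transgenes of familial Alzheimer's disease are driven in neurons by the mouse Thy1 promoter, and all 5XFAD groups carry them.

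Neurons signal by releasing transmitter from synaptic vesicles, which fuse with the membrane through SNARE proteins, and receptors held in the postsynaptic density read the signal. Calcium entering through these receptors acts through calmodulin and its kinase CaMKII, and strong activity induces genes such as Arc. Microglia, the resident macrophages of the brain, survey and engulf synapses and neuronal debris, and preparations of microglia can hold transcripts of neighbouring cells. In these bulk libraries, fewer cells of a type and less RNA per cell cannot be told apart.

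Olfm1 and Syp are members that both rose in aged wild type, and the RefSeq promoter table (GRCm38.p6) held both, so their upstream sequences are shown here 5′ to 3′ on the gene's own strand. Each stretch ends just before the transcription start and was shortened to bases outside annotated exons, and capitals mark GC boxes, the letters GGGCGG or CCGCCC. Olfm1 has a pair of starts in that table, and the second lies downstream within the gene.
Olfm1, chr2:28192843-28192991, plus strand: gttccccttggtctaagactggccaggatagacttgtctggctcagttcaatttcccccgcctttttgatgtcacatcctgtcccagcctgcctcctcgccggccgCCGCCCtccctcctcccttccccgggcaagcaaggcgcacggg
Olfm1, chr2:28205439-28205658, plus strand: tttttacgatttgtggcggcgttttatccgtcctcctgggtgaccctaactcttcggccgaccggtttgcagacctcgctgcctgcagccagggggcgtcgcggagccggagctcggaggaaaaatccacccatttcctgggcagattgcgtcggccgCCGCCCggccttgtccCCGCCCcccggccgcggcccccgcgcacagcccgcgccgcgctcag
Syp, chrX:7638330-7638470, plus strand: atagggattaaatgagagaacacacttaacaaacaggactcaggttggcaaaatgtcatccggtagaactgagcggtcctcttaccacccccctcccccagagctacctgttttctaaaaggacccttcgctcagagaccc
The Olfm1 stretches hold 1 and 2 GC boxes and the Syp stretch holds 0. On either strand and over the full 250 bases before the start, a GC box was found in 15 of 26 promoters of the 19 members with an entry, against 32.7% of all 32851 promoters. The core of the cyclic AMP response element, TGACG or CGTCA, was found in 5 of the 26, against 17.8% of all promoters, and TATAAA or TTTATA in 1 of the 26, against 12.4%. These matches describe letters and not binding.

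Depth per library ran from 8600878 to 19411434 reads in the aging groups and from 9264999 to 18698707 in the adult groups, and a floor of 3 reads corresponded to 2.06 to 4.51 and 2.26 to 4.36 normalized counts. The 12 microglial markers, among them Cx3cr1 and P2ry12, summed to 2.67% to 3.98% of the normalized counts of a library. Counts of the targeted gene were not lower under the Trem1-/- label in young mice. Trem1 was at 25.2, 7.65 and 8.74 normalized counts in young wild type and at 89.4, 99.8 and 89.5 in the libraries labelled young Trem1-/-. It was at 269, 188 and 237 in aged wild type and at 124, 124 and 244 in the libraries labelled aged Trem1-/-, which overlap. In the 5XFAD table it was at 62.7, 0 and 30.2 in wild type, 13.7, 32.0 and 36.8 in 5XFAD and 25.1, 18.1 and 38.3 in 5XFAD Trem1+/-. Whether reads over Trem1 come from an intact or a disrupted gene cannot be told from gene counts, so they do not settle the labels. Neutrophil sums, given below, were also lowest in young wild type of the aging table. Their part in the Trem1 counts was not tested. Values below are normalized counts, which are reads divided by a factor for each library, and a log2 change is the gap between group means on the log2(normalized count + 1) scale, printed ± its standard error from limma, fitted over all tested genes of a table.

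Members were present at low levels. Their normalized counts summed to 0.0202% to 0.0431% of an adult library and to 0.0209% to 0.0344% of a library of the aging table. On a scale per kilobase of exon, the median member stood at the 68.3 percentile of all genes in the 5XFAD table and the 63.9 percentile in the aging table, where the median microglial marker stood at 99.9 in both. The most abundant members per kilobase in the aging table were Camk2n1, an inhibitor of CaMKII (172), Vamp2, the SNARE of synaptic vesicles (142), and Ncdn, a neuronal protein that regulates CaMKII (84.9). Without division by length, Camk2n1, Vamp2, Ncdn and Dlg4, which encodes the postsynaptic scaffold PSD-95, made up 40.5% to 70.0% of the members' sum in the 5XFAD table and 56.5% to 75.7% in the aging table. Genes with a mean of at least 10 normalized counts over a table were tested, which left 31 members in the 5XFAD table and 23 in the aging table. The 3 untested members of the 5XFAD table were Tubb3, Stmn3 and Gad2, and the 11 of the aging table were Tubb3, Nefl, Nefm, Stmn2, Stmn3, Arc, Gad1, Gad2, Slc17a7, Rbfox3 and Thy1.

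**Figure D1:**
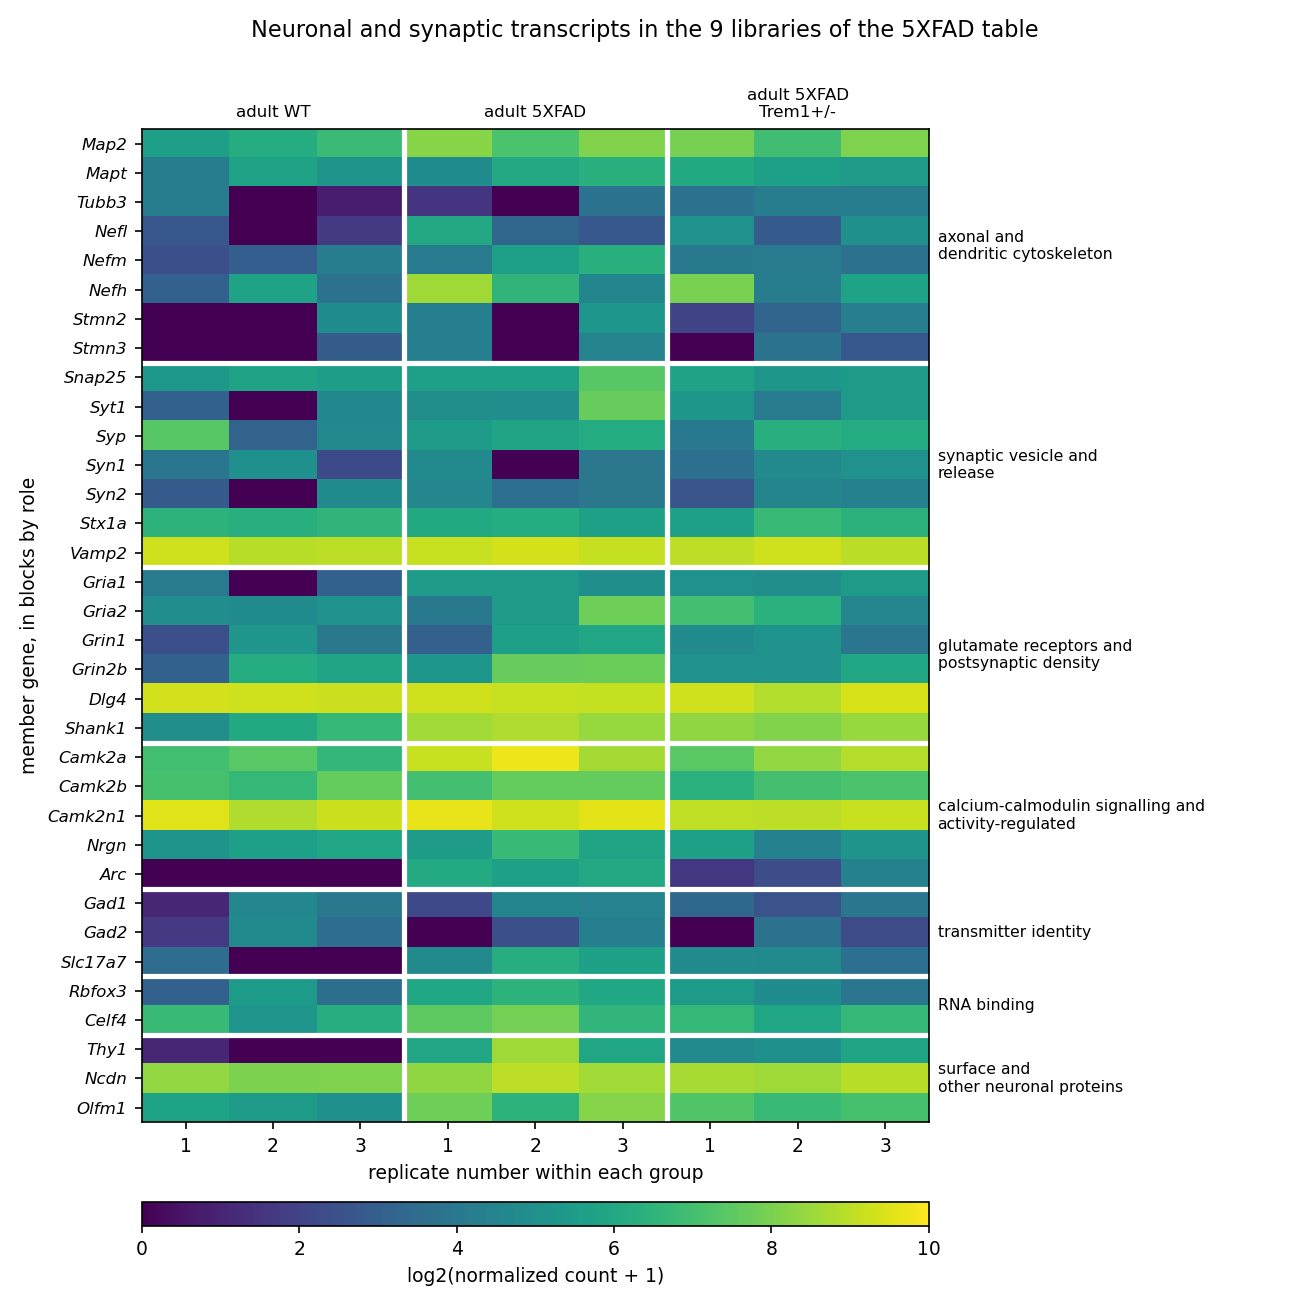
Level of each of the 34 members (rows, in blocks by role) in each of the 9 adult libraries (columns), as log2(normalized count + 1). Arc is at 0 in all 3 wild type libraries, Shank1, Thy1 and Camk2a are higher in every 5XFAD library than in every wild type library, and Vamp2, Dlg4 and Camk2n1 are high in all 9.

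The first comparison asked which members differ between microglia of adult 5XFAD and wild type mice. The scaffold gene Shank1, the surface glycoprotein gene Thy1, the CaMKII subunit gene Camk2a, the activity-regulated gene Arc and Olfm1, which encodes a secreted synaptic glycoprotein, rose in 5XFAD, and 0 members fell. These 5 stand among 31 tested members and 34 listed, where 1.98% of the 17025 tested genes were called, 1.62% higher and 0.364% lower. At an unadjusted p under 0.05 the count was 13 of 31, where 15.1% of all tested genes passed. The median log2 change of the 31 tested members was 1.51, with 28 above 0, against 0.00 over all tested genes. Of the 31, 7 (Nefl, Nefm, Stmn2, Gria1, Arc, Slc17a7 and Thy1) had a wild type mean under 10 and passed the filter through the 5XFAD groups. The counts over tested members and the calls of Arc and Thy1 are thus a description only. With no filter on low values the median was 1.38. Groups did not overlap for 11 members higher in 5XFAD and for 1 lower, Stx1a, where 9.32% of all tested genes were higher and 8.01% lower without overlap.

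In the postsynaptic density group, Shank1 (chromosome 7, 44310253 to 44360572, plus strand, GRCm38, GENCODE M21), a scaffold that ties receptors to the cytoskeleton, was at 29.7, 65.6 and 101 in wild type. It was at 388, 446 and 349 in 5XFAD and at 327, 271 and 354 in 5XFAD Trem1+/-. Every library with the transgenes was above every wild type library, with no overlap. The log2 change in 5XFAD was 2.73 ± 0.38 (limma adjusted p = 0.000621), a 6.63-fold rise on that scale, and it passed the threshold with each of the 9 libraries left out. The call was lost in a limma fit without trended and robust variances (adjusted p = 0.0710). Of the other members of the group, Dlg4 was at 640, 614 and 583 in wild type and 621, 573 and 556 in 5XFAD, a log2 change of -0.07 ± 0.19. The AMPA receptor subunit gene Gria1 had a log2 change of 2.93 ± 1.04 (limma adjusted p = 0.178) and the NMDA receptor subunit gene Grin2b one of 1.85 ± 0.82 (adjusted p = 0.292). In all, 1 of the 6 members of the group rose, and the median of the 6 log2 changes was 1.41. Exons of Shank1 overlap those of 1700008O03Rik on the other strand over 3.22% of its length, and with the strandedness not given in the sources used here, reads there could belong to either gene.

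In the calcium-calmodulin group, Camk2a, the alpha subunit of CaMKII in excitatory neurons, was at 124, 172 and 97.2 in wild type and at 575, 849 and 403 in 5XFAD. The lowest 5XFAD library was above the highest wild type library, and the log2 change was 2.18 ± 0.36 (limma adjusted p = 0.00486), with the call kept in all 9 fits that left out a library and lost without trended and robust variances (0.156). Arc (chromosome 15, 74669083 to 74672570, minus strand), an immediate early gene whose protein acts in AMPA receptor endocytosis, was at 0 reads in all 3 wild type libraries. It was at 67.5, 50.9 and 65.4 in 5XFAD and at 2.09, 4.12 and 20.1 in 5XFAD Trem1+/-. Against a floor of 3 reads in each wild type library, Arc was at least 20.2-fold higher in 5XFAD. Its fitted log2 change, which depends on the pseudocount, was 5.95 ± 1.32 (limma adjusted p = 0.0244). Arc passed the filter through the transgenic groups, so its call is a description only. The Arc call was lost without wild type replicate 2 (adjusted p = 0.0502) and without 5XFAD replicate 1 (0.101), 2 (0.0599) or 3 (0.0772). Camk2b, Camk2n1 and the calmodulin-binding gene Nrgn had log2 changes of 0.30 ± 0.39, 0.32 ± 0.20 and 0.45 ± 0.63, so that 2 of the 5 members of the group rose. Of 11 tested other immediate early genes, 2 rose, Egr1 (1.52 ± 0.36) and Ier2 (1.47 ± 0.31), and their 12 listed genes summed to 8663 to 9444 in wild type and 8493 to 12316 in 5XFAD.

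Among surface and other neuronal proteins, Thy1 (chromosome 9, 44043384 to 44048579, plus strand), a surface glycoprotein of neurons and T cells, had 1 read in the 3 wild type libraries together. Its normalized counts were 1.10, 0 and 0 in wild type, 60.2, 377 and 58.8 in 5XFAD and 26.1, 31.3 and 56.5 in 5XFAD Trem1+/-. All 6 libraries with the transgenes were above all 3 wild type libraries, and 5XFAD replicate 2 stood highest. The ratio of reads, scaled for depth, was 408 in 5XFAD against wild type (exact 95% interval 72.7 to 16140, 397 reads against 1), an interval that covers counting error only. The fitted log2 change was 6.44 ± 1.01 (limma adjusted p = 0.00198) and was called with each of the 9 libraries left out. Thy1 passed the filter through the transgenic groups, so this call is a description only. Since the Thy1 promoter drives the transgenes, reads of Thy1 sequence in the transgene cassette and of the Thy1 gene cannot be told apart in these gene counts.

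Olfm1 (chromosome 2, 28192992 to 28230736, plus strand), whose upstream sequences are printed above, was at 55.0, 42.2 and 31.7 in wild type, 223, 87.2 and 293 in 5XFAD and 155, 105 and 134 in 5XFAD Trem1+/-. Neither transgenic group overlapped wild type, although 5XFAD replicate 2 lay below the other 5XFAD libraries. The log2 change in 5XFAD was 2.07 ± 0.48 (limma adjusted p = 0.0330). The call was lost in 5 of the 9 fits that left out a library. These were wild type replicate 2 (0.0918) or 3 (0.0856), 5XFAD replicate 1 (0.115) or 3 (0.122), and 5XFAD Trem1+/- replicate 3 (0.0520). It was also lost without trended and robust variances (0.169) and with only the groups compared (0.0656). Ncdn was at 330, 257 and 266 in wild type and 323, 515 and 395 in 5XFAD, overlapping groups with a log2 change of 0.51 ± 0.24 (adjusted p = 0.331). In this group 2 of 3 members rose.

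**Figure D2:**
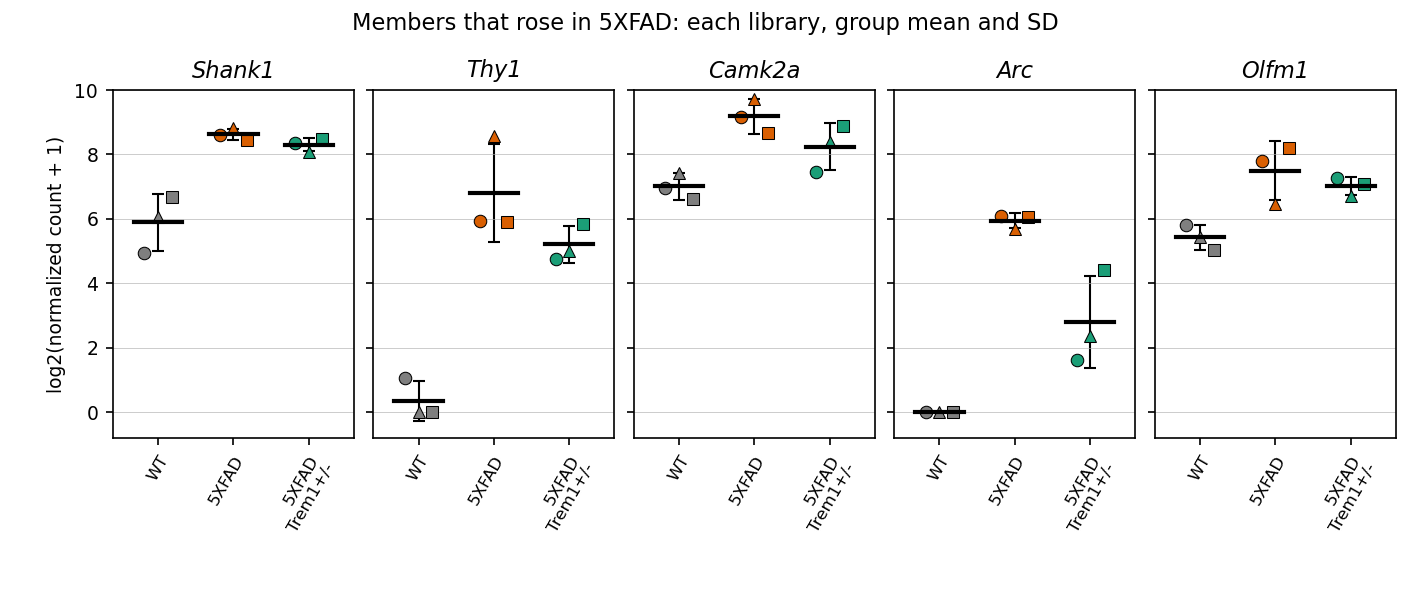
Normalized counts of the 5 members that rose in 5XFAD, as log2(normalized count + 1), with 1 point a library (circle, triangle and square for replicates 1, 2 and 3), the group mean as a horizontal line and the SD as a whisker (n = 3). The 3 wild type libraries lie below the 3 5XFAD libraries for all 5 genes, and Arc in 5XFAD Trem1+/- (2.09 to 20.1 normalized counts) lies between both.

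The remaining groups held no called member. In the cytoskeleton group, Map2, the microtubule protein of dendrites, was at 48.4, 71.5 and 112 in wild type and 297, 142 and 276 in 5XFAD. The groups did not overlap, and the log2 change of 1.63 ± 0.43 missed the threshold (limma adjusted p = 0.0573). The heavy neurofilament gene Nefh was at 7.70, 52.7 and 12.8 in wild type and 381, 93.0 and 22.9 in 5XFAD, so that a single library carried most of its group's mean. All 6 tested members of the group had a log2 change above 0, from 0.70 to 2.55. Nefl and Nefm share 1108 exon bases on opposite strands, 32.8% of Nefl and 19.2% of Nefm, and their reads could be split between them.

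In the synaptic vesicle group, Vamp2 was at 624, 484 and 507 in wild type and 570, 648 and 550 in 5XFAD, a log2 change of 0.14 ± 0.20. Stx1a, the plasma membrane SNARE, was at 88.0, 77.3 and 93.5 in wild type and 66.6, 71.2 and 52.3 in 5XFAD. It was thus lower in every 5XFAD library, with a log2 change of -0.45 ± 0.49 (limma adjusted p = 0.718). The calcium sensor gene Syt1 had the largest log2 change of the group, 3.26 ± 1.13 (adjusted p = 0.169), and Syn1, a phosphoprotein that tethers vesicles, the lowest of all members, -0.82 ± 1.29. That sign rested on 5XFAD replicate 2, where Syn1 had 0 reads, and without that library the change was 0.64. The group's 7 log2 changes had a median of 0.67.

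Of the transmitter genes, Slc17a7, the vesicular glutamate transporter of excitatory neurons, was at 11.0, 0 and 0 in wild type and 25.5, 74.1 and 51.5 in 5XFAD. These values did not overlap, and the log2 change of 4.36 ± 1.18 missed the threshold (limma adjusted p = 0.0659). Gad1, which makes GABA in inhibitory neurons, was at 1.10, 23.4 and 15.1 in wild type and 3.65, 23.3 and 20.4 in 5XFAD, a log2 change of 0.52 ± 1.27. Of the RNA-binding members, Rbfox3, known as NeuN, was at 7.70, 42.2 and 11.3 in wild type and 59.3, 87.2 and 62.9 in 5XFAD (log2 change 2.07 ± 0.80, adjusted p = 0.224). Celf4 was at 109, 36.3 and 73.1 in wild type and 181, 237 and 94.0 in 5XFAD (1.25 ± 0.50, adjusted p = 0.242), and these groups overlapped.

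The summed normalized counts of the 34 members were 2853 to 3312 in wild type, 5254 to 5807 in 5XFAD and 3730 to 4492 in 5XFAD Trem1+/-, with no overlap between the groups. Without the 4 abundant members Camk2n1, Vamp2, Ncdn and Dlg4, the sums were 992 to 1147, 2925 to 3453 and 1748 to 2249. Of the 31 tested members, 24 had their highest library in 5XFAD, 5 in replicate 1, 10 in replicate 2 and 9 in replicate 3, and the 24 include all 7 members with a wild type mean under 10. The share of all tested genes highest in 5XFAD was not computed, so this count is a description only. The authors' deposited table compared wild type with 5XFAD and listed 7 members with an adjusted p-value under 0.05, all higher in 5XFAD, where 4.24% of all genes with an adjusted p-value in that table passed and 3.26% were higher in 5XFAD. Its log2 fold changes, signed so that a negative value is higher in 5XFAD, were -2.58 for Shank1, -8.86 for Thy1, -2.22 for Camk2a, -8.39 for Arc and -2.24 for Olfm1. In that deposited table Map2 (-1.63, adjusted p-value 0.0107) and Slc17a7 (-3.81, adjusted p-value 0.0348) also passed.

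Of another 56 neuronal genes 37 were tested, with 7 higher, 0 lower and a median log2 change of 1.71. The same filter was used for each list of other genes in both tables. Counts and medians over their tested genes are thus a description only. All 56 neuronal genes, tested or not, summed to 3429 to 3833 in wild type, 8488 to 10440 in 5XFAD and 5917 to 7822 in 5XFAD Trem1+/-. Among those that rose were the axonal kinesin genes Kif1a (3.74 ± 0.42, limma adjusted p = 0.000118), Kif5c (3.19 ± 0.50, 0.00193) and Kif5a (3.11 ± 0.45, 0.0165). Markers of other cells moved beside them. Of 12 tested astrocyte markers 3 rose, among them Gfap (4.56 ± 0.74, adjusted p = 0.0166), with a list median of 2.25, and their sum was 3248 to 4268 in wild type, 4710 to 7416 in 5XFAD and 4975 to 5987 in 5XFAD Trem1+/-. Of 6 choroid plexus markers 0 passed by limma and 5 had an unadjusted p under 0.05, and their sum was 2381 to 6635 in wild type, 15094 to 82169 in 5XFAD and 18368 to 103791 in 5XFAD Trem1+/-. The 5XFAD sums were 82169, 15094 and 25505, all above wild type.

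The 9 tested oligodendrocyte markers included 1 that rose, Cspg4. All 12 listed summed to 1496 to 1564 in wild type, 1752 to 1992 in 5XFAD and 1822 to 2076 in 5XFAD Trem1+/-. Mog and Opalin were at 0 in all wild type and 5XFAD libraries. Cspg4 had a mean of 8.27 in wild type and 151 in 5XFAD. It passed the filter through the transgenic groups, so its call is a description only. The 7 tested endothelial markers held 0 calls by limma and 2 with an unadjusted p under 0.05. All 8 listed summed to 1058 to 1501 in wild type, 1006 to 2370 in 5XFAD and 1248 to 2600 in 5XFAD Trem1+/-. The T cell markers summed to 702 to 963 in wild type, 308 to 538 in 5XFAD and 267 to 718 in 5XFAD Trem1+/-, and Trac was at 0 in all 9 libraries. Most of each sum was Il7r, with means of 777, 376 and 482 in the same order (5XFAD against wild type, limma adjusted p = 0.0953). The other tested T cell marker, Lck, had a mean of 23.1 in wild type and 31.2 in 5XFAD, a log2 change of 0.11 ± 1.13. The microglial markers, of which 3 of 12 were lower and 1 higher in 5XFAD, summed to 448495 to 496465 in wild type, 382318 to 415570 in 5XFAD and 446179 to 490710 in 5XFAD Trem1+/-. The part of these cells in the members' levels was not tested.

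The heterozygous comparison asked whether Trem1+/- alters the members in 5XFAD mice. Against 5XFAD, limma called 0 of the 31 members and 0% of all tested genes. Of the members 3 had an unadjusted p under 0.05, where 5.19% of all tested genes did, and DESeq2 and edgeR also called 0 members. Those 3 were Camk2a (-0.95 ± 0.36), Arc (-3.15 ± 1.32) and Camk2n1 (-0.43 ± 0.20), each with a limma adjusted p of 0.931. The largest rise in value was that of Syn1, 1.58 ± 1.29 (adjusted p = 0.943). With 1 library left out it was 0.12 to 2.51, and Syn1 had 0 reads in 5XFAD replicate 2. Camk2a was at 174, 332 and 474 in 5XFAD Trem1+/-, overlapping the 403 to 849 of 5XFAD. The median of the 31 log2 changes was -0.43, with 5 above 0, against 0.02 over all tested genes. Groups did not overlap for 4 members, Arc, Camk2n1, Rbfox3 and Thy1, all lower in 5XFAD Trem1+/-, where 5.24% of all tested genes were higher and 6.61% lower without overlap. A p that misses the threshold does not show that the groups are alike.

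Against the same wild type libraries as 5XFAD, 2 of 31 members rose in 5XFAD Trem1+/- and 0 fell, where 2.78% of all tested genes were called, 2.04% higher and 0.74% lower. At an unadjusted p under 0.05 the count was 11, where 15.9% of all tested genes passed. The members that rose were Shank1 (2.42 ± 0.38, limma adjusted p = 0.00181) and Thy1 (4.85 ± 1.01, adjusted p = 0.0133). Thy1 passed the filter through the transgenic groups, so its call and the counts over tested members are a description only. The Shank1 call held with each of the 9 libraries left out. Without trended and robust variances Shank1 (0.0988) and Thy1 (0.0721) missed the threshold, and the Thy1 call was lost without 5XFAD Trem1+/- replicate 2 (adjusted p = 0.0533) or 3 (0.126). For Thy1 the depth-scaled ratio of reads was 117 (exact 95% interval 20.6 to 4667, 122 reads against 1). Arc was at least 2.90-fold higher against the floor of 3 reads a library, with a fitted log2 change of 2.79 ± 1.32 (adjusted p = 0.311). Map2 (1.45 ± 0.43, adjusted p = 0.0774), Camk2a (1.23 ± 0.36, 0.0816) and Olfm1 (1.60 ± 0.48, 0.0835) missed the threshold, and each had no overlap with wild type. The lowest log2 change was that of Nrgn, -0.48 ± 0.63. The median over the 31 was 0.76, with 25 above 0, and 10 members were higher without overlap and 0 lower, where 12.9% of all tested genes were higher and 12.6% lower. Since both transgenic groups were set against 1 wild type group, their changes share those libraries and are given only side by side. Of the other neuronal genes, 6 of 37 rose in this comparison, with a median of 0.69, among them Kif1a (3.43 ± 0.42, limma adjusted p = 0.000181) and Kif5c (2.34 ± 0.50, 0.0147).

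**Figure D3:**
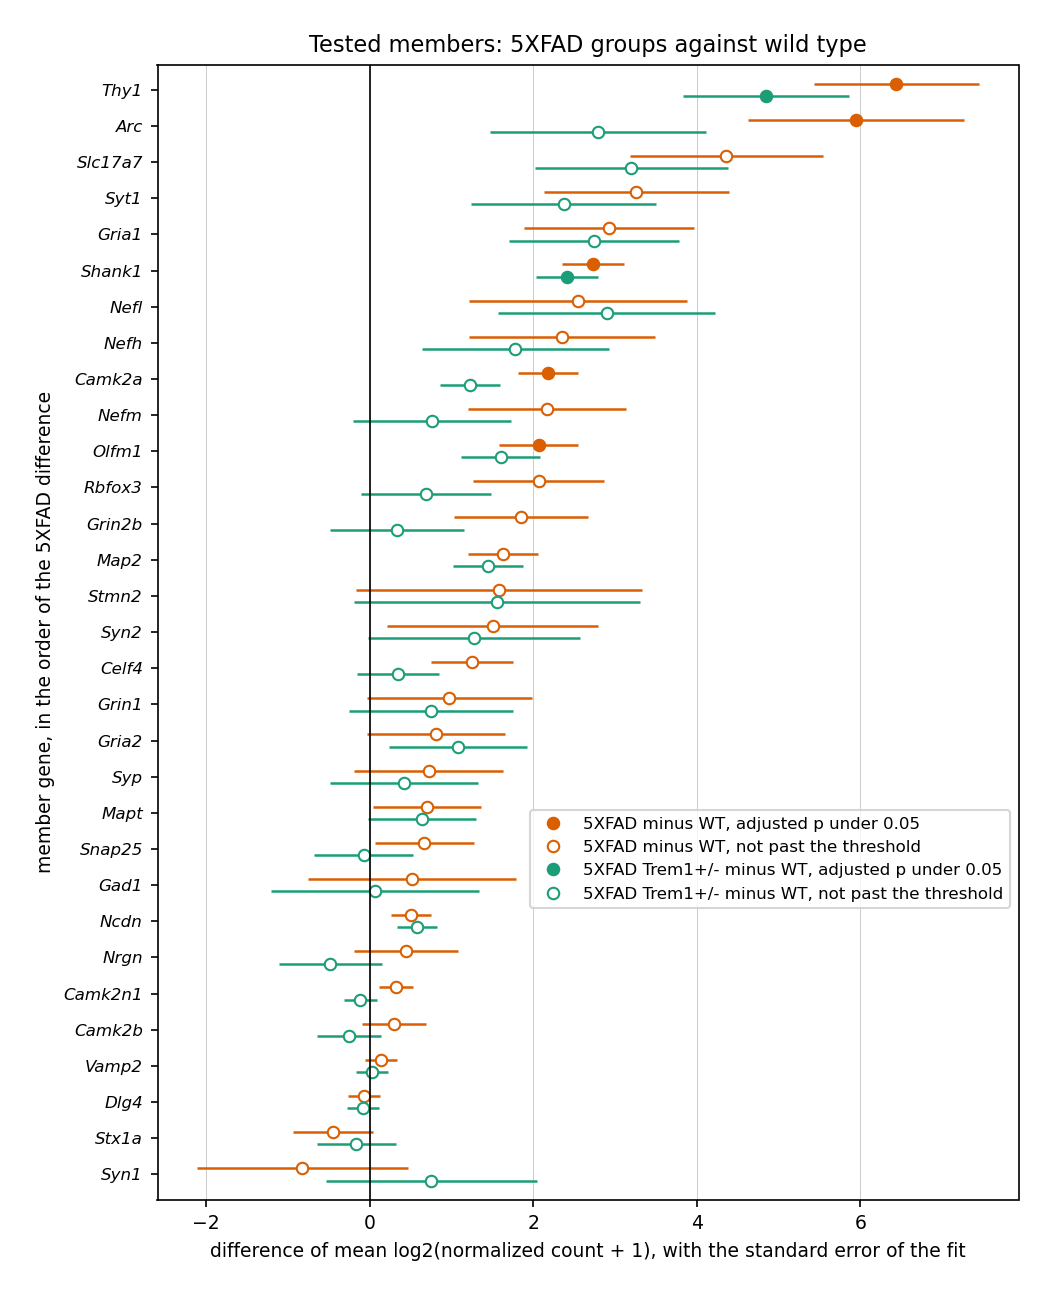
Log2 change of the 31 tested members in 5XFAD (orange) and 5XFAD Trem1+/- (green) against wild type, with the standard error of the limma fit as a horizontal line and filled points for an adjusted p under 0.05. The 5XFAD values run from -0.82 (Syn1) to 6.44 (Thy1), and both groups are set against the same 3 wild type libraries.

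The aging comparison in wild type asked which members differ between aged and young microglia. Olfm1, the heavy neurofilament gene Nefh and the synaptic vesicle gene Syp rose in aged wild type, and 0 members fell. These 3 stand among 23 tested members, where 8.67% of the 16086 tested genes were called, 6.43% higher and 2.24% lower. At an unadjusted p under 0.05 the count was 5 of 23, where 21.8% of all tested genes passed. The median of the 23 log2 changes was 0.43, with 16 above 0, against -0.01 over all tested genes, and with no filter on low values it was 0.26. Groups did not overlap for 7 members, all higher in aged wild type, where 15.1% of all tested genes were higher and 11.2% lower without overlap. They were Nefh, Snap25, Syp, Syn2, Camk2b, Celf4 and Olfm1. Of these Syn2 had a young wild type mean under 10 and passed the filter through the other groups, so that its values are a description only.

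Olfm1 was at 42.0, 79.8 and 35.8 in young wild type and 394, 259 and 332 in aged wild type. It was at 127, 374 and 518 in the libraries labelled young Trem1-/- and at 222, 141 and 187 in those labelled aged Trem1-/-. Young wild type was below every library of the other 3 groups. The log2 change from young to aged wild type was 2.69 ± 0.42 (limma adjusted p = 0.000285), a 6.45-fold rise on that scale, and it was called with each of the 12 libraries left out.

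Nefh (chromosome 11, 4938754 to 4948064, minus strand), a neurofilament subunit of large axons, was at 21.5, 29.5 and 60.3 in young wild type and 129, 86.4 and 128 in aged wild type. The aged libraries all lay above the young ones, with a log2 change of 1.71 ± 0.50 (limma adjusted p = 0.0337). The call was lost without young wild type replicate 1 (0.143) or 2 (0.0981) and without aged wild type replicate 1 (0.122) or 3 (0.137). Nefh was at 26.4, 42.6 and 23.2 in the libraries labelled young Trem1-/- and at 112, 62.2 and 111 in those labelled aged Trem1-/-, again without overlap between the ages.

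Syp (chromosome X, 7638471 to 7653256, plus strand), which encodes synaptophysin of the synaptic vesicle membrane, was at 34.5, 3.28 and 24.5 in young wild type and 116, 70.6 and 58.6 in aged wild type. The groups did not overlap, although young wild type replicate 2 was far below its group. The log2 change was 2.34 ± 0.72 (limma adjusted p = 0.0425). It was 1.40 (adjusted p = 0.246) without that replicate, and the call was also lost without aged wild type replicate 1 (0.176), 2 (0.0673) or 3 (0.0861), labelled young Trem1-/- replicate 1 (0.05004) or labelled aged Trem1-/- replicate 1 (0.0530). Exons of the antisense gene Gm14703 cover 16.8% of those of Syp, and the reads there cannot be assigned to either.

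The other members of the aging table did not pass the test. Vamp2 was at 512, 561 and 569 in young and 459, 595 and 563 in aged wild type (log2 change -0.03 ± 0.19), and Stx1a at 42.9, 134 and 88.2 against 61.1, 64.5 and 73.9 (-0.27 ± 0.69). Dlg4 was at 505, 471 and 473 against 603, 364 and 367 (-0.16 ± 0.22), and Camk2n1 at 844, 747 and 845 against 907, 647 and 539 (-0.25 ± 0.17). All 4 overlapped between the ages. Ncdn was at 231, 150 and 343 against 491, 308 and 368 (0.74 ± 0.31, limma adjusted p = 0.166), and Map2 at 57.8, 76.5 and 65.5 against 74.4, 82.3 and 73.9 (0.21 ± 0.46). The lowest log2 change was that of Grin1, the obligate NMDA receptor subunit, at -1.23 ± 1.42. Shank1, Camk2a and Celf4 had log2 changes of -0.30 ± 0.55, 0.28 ± 0.48 and 0.43 ± 0.45. Thy1 had 2 reads in young and 16 in aged wild type, a depth-scaled ratio of 6.95 (exact 95% interval 1.63 to 62.3, counting error only), and was not tested.

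Further untested members had a group with 0 to 3 reads, and their ratios of reads below carry exact 95% intervals for counting error only. The light neurofilament gene Nefl was at 18.7, 10.9 and 32.3 in young wild type, 0, 25.4 and 3.21 in aged wild type and 1.87, 0 and 1.5 in the libraries labelled aged Trem1-/-. The last of these lay below young wild type without overlap, with 3 reads against 67, and the ratio of young wild type to them was 18.1 (5.94 to 90.0). The ratio of aged wild type to them was 9.63 (3.07 to 48.6), where aged wild type replicate 2 held most of the reads. Tubb3, a neuronal tubulin gene, had 0 reads in the libraries labelled aged Trem1-/-. Against a floor of 3 reads a library it was at least 2.96-fold higher in young wild type, 1.09-fold in aged wild type and 1.76-fold in the libraries labelled young Trem1-/-. All 35 of its young wild type reads were in replicate 1. Stmn3, of the stathmin family of tubulin-binding proteins, was higher in young wild type than in the libraries labelled young Trem1-/- (5.04, 1.43 to 27.2) and labelled aged Trem1-/- (6.08, 1.41 to 54.8). Thy1 was lower in young wild type than in both, with ratios of 8.43 (2.0 to 75.2) and 7.40 (1.65 to 68.1).

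**Figure D4:**
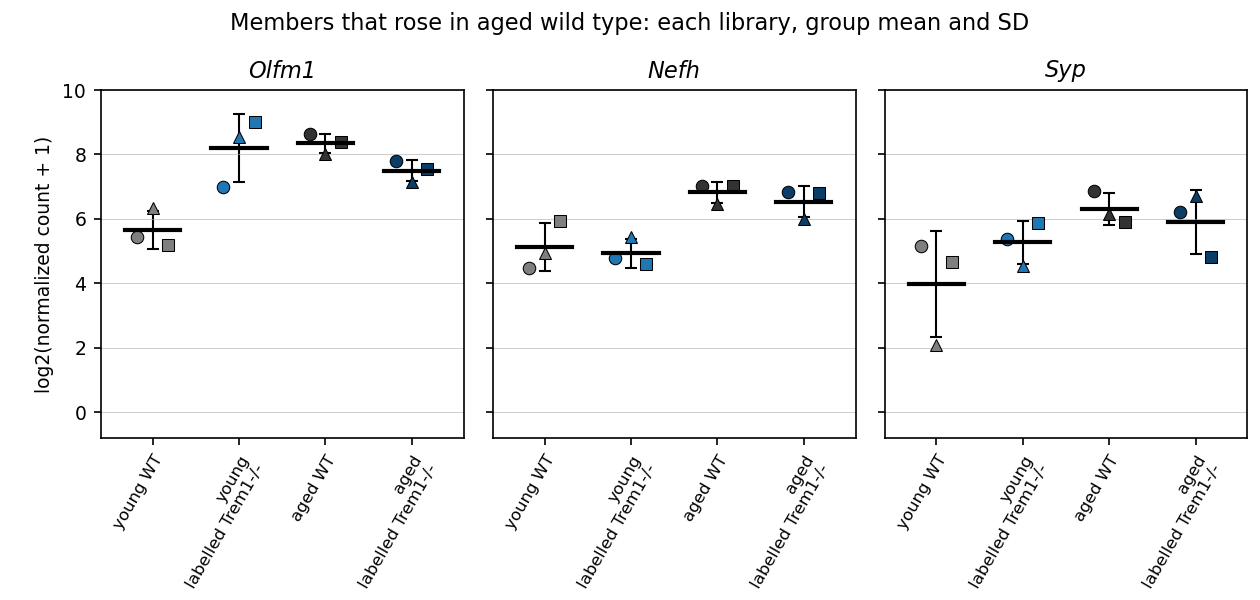
Normalized counts of the 3 members that rose in aged wild type, as log2(normalized count + 1) in the 4 groups of the aging table, with 1 point a library (circle, triangle and square for replicates 1, 2 and 3), the group mean as a horizontal line and the SD as a whisker (n = 3). Young wild type lies below aged wild type for all 3 genes, and for Olfm1 also below the libraries labelled Trem1-/- of both ages.

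The members summed to 2765 to 3239 in young and 2993 to 4008 in aged wild type, which overlap. Without Camk2n1, Vamp2, Ncdn and Dlg4 the sums were 673 to 1010 and 1157 to 1548, which do not. The 56 other neuronal genes summed to 3495 to 4463 in young and 5094 to 5861 in aged wild type, also without overlap. Of the 56 other neuronal genes, 3 of 29 tested rose in aged wild type, among them Snap91 (1.85 ± 0.56, limma adjusted p = 0.0419) and Kif1a (1.32 ± 0.41, 0.0431), with a list median of 0.44. All 10 neutrophil markers and 6 of 8 monocyte markers rose, and the neutrophil sum was 8487 to 15791 in young and 67642 to 131458 in aged wild type. The monocyte sum was 1869 to 4148 in young and 14027 to 24581 in aged wild type. The choroid plexus sum, with 2 of 6 markers higher, was 6134 to 15083 in young and 27311 to 45057 in aged wild type. The microglial sum was 476217 to 533466 in young and 379798 to 413928 in aged wild type, with 8 of 12 markers lower. Of 10 tested astrocyte markers 1 rose, and the sums of all 12 listed overlapped (3341 to 3864 and 3367 to 3787). Of 7 tested oligodendrocyte markers 1 rose, Mbp (0.88 ± 0.18, limma adjusted p = 0.00192). All 12 listed summed to 1507 to 1696 in young and 1806 to 2370 in aged wild type, without overlap and with Opalin at 0 in all of these libraries. Of 12 immediate early genes 3 rose, with sums of 10188 to 10704 and 9970 to 16299. The part of these lists in the members' levels was not tested.

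The libraries labelled Trem1-/- were compared with wild type at each age, and every direction here rests on the labels. Trem1 counts were higher under the Trem1-/- label in young mice and overlapped wild type in aged mice. In the young, 1 of 23 members, Olfm1, was higher in the libraries labelled Trem1-/- (2.53 ± 0.42, limma adjusted p = 0.00151), where 2.58% of all tested genes were called, 2.36% higher and 0.224% lower. At an unadjusted p under 0.05 the count was 3, where 11.8% of all tested genes passed. The call held with each of the 12 libraries left out and was lost without trended and robust variances (0.0643). Beside it, 3 of 12 immediate early genes rose, among them Klf2 (1.72 ± 0.29, limma adjusted p = 0.0018) and Ier2 (1.44 ± 0.29, 0.00537), with a sum of 10133 to 14897. Also 3 of 10 neutrophil and 3 of 8 monocyte markers rose, and their sums in these libraries were 26710 to 65658 and 11406 to 27789, above young wild type. Their part in the Olfm1 level was not tested. The median of the 23 log2 changes was -0.01, with 11 above 0. Groups did not overlap for Olfm1, which was higher, and for Syt1 and Gria1, which were lower, where 11.3% of all tested genes were higher and 9.05% lower without overlap. Syt1 had the lowest log2 change, at 20.5, 77.6 and 18.3 in young wild type and 5.96, 3.87 and 4.21 in the labelled libraries, with a value of -2.51 ± 0.89 (limma adjusted p = 0.176).

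In the aged, limma called 0 of 23 members between libraries labelled Trem1-/- and wild type, and 0% of all tested genes, and DESeq2 and edgeR also called 0 members. DESeq2 gave only 4547 genes an adjusted p here, so its 0 does not cover members outside them. Of the members 3 had an unadjusted p under 0.05, where 9.6% of all tested genes did. These were Nrgn (-3.50 ± 1.12, limma adjusted p = 0.369), Gria1 (-3.01 ± 1.18, 0.422) and Dlg4 (0.51 ± 0.22, 0.443). Nrgn was at 67.8, 20.6 and 14.5 in aged wild type and at 14.9, 0 and 0 in the labelled libraries, which overlap. The largest rise in value was that of Syn2, 1.16 ± 1.13. Olfm1 (-0.84 ± 0.42, limma adjusted p = 0.533) was the 1 member whose groups did not overlap, where 5.91% of all tested genes were higher and 6.25% lower without overlap. The median was -0.14, with 11 above 0, and was 0.32 without labelled aged Trem1-/- replicate 2. Labelled aged Trem1-/- replicate 3 had the lowest depth, 8600878 reads, and held the highest value of 10 of the 23 members, among them Dlg4 (791), Vamp2 (716) and Camk2a (281). It also had the most genes above 0 of the aging table, 24877. The share of all tested genes highest there was not computed, so the count of members is a description only.

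Between the ages within the libraries labelled Trem1-/-, limma called 0 of 23 members, where 1.71% of all tested genes were called, 1.08% higher and 0.634% lower. Of the members 5 had an unadjusted p under 0.05, where 15.2% of all tested genes did. DESeq2 called 1 member, Nefh, and edgeR 0. Nefh had the smallest limma p of them (1.60 ± 0.50, adjusted p = 0.109), and Camk2a (1.44 ± 0.48, 0.138), at 123, 111 and 27.4 in young and 142, 194 and 281 in aged, also did not overlap. Syt1 had the largest rise in value (2.45 ± 0.89, limma adjusted p = 0.167) and Nrgn the lowest value (-2.76 ± 1.12, 0.230). Groups did not overlap for 5 members (Nefh, Syt1, Gria2, Shank1 and Camk2a), all higher in the aged, where 11.3% of all tested genes were higher and 9.87% lower without overlap. The median of the 23 was 0.32. Of the other neuronal genes 1 of 29 rose, Shank2 (2.15 ± 0.44, limma adjusted p = 0.0108), a scaffold of the same family as Shank1.

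The age change of Olfm1 differed between the labelled genotypes. It was 2.69 ± 0.42 in wild type and -0.69 ± 0.42 in the libraries labelled Trem1-/-, and the interaction was -3.38 ± 0.59 (limma adjusted p = 0.00369), where 2.54% of all tested genes were called, 0.398% above 0 and 2.14% below. It was the 1 member called of 23, and the call held with each of the 12 libraries left out and was lost without trended and robust variances (0.0947). Syt1 had the highest interaction (3.53 ± 1.26, limma adjusted p = 0.153), and it and Olfm1 were the 2 members at an unadjusted p under 0.05, where 15.3% of all tested genes passed. Beside Olfm1, 2 of 10 neutrophil and 2 of 8 monocyte markers had a called interaction below 0, with list medians of -1.65 and -3.15, as had 2 of 12 immediate early genes, with a median of -0.97. The neutrophil and monocyte sums are given above, and in the libraries labelled aged Trem1-/- they were 56290 to 141376 and 13642 to 17743. Their part in the Olfm1 interaction was not tested. The interaction and the 3 comparisons against young wild type share those 3 young libraries. Set against young wild type, the libraries labelled aged Trem1-/- had 1 member higher, again Olfm1 (1.84 ± 0.42, limma adjusted p = 0.0095), where 6.67% of all tested genes were called, 4.65% higher and 2.02% lower. That call was lost without young wild type replicate 3 (0.0548) or labelled aged Trem1-/- replicate 1 (0.0509), and without trended and robust variances (0.0927). The authors' deposited table for this pair of groups, signed so that a negative value is higher in the libraries labelled aged Trem1-/-, listed -1.81 for Olfm1 (adjusted p-value 9.15e-04) and -3.68 for Syn2 (0.0205), where 7.32% of all genes with an adjusted p-value in that table passed and 5.15% were higher in the same group. In the limma fit Syn2, which passed the filter only through the groups where it is high, had the largest rise (3.09 ± 1.13, adjusted p = 0.112) and Nrgn the lowest value (-3.45 ± 1.12, 0.0664). Of the 23 members 7 had an unadjusted p under 0.05, where 19.7% of all tested genes did. Groups did not overlap for 4 members, Nefh, Syn2, Camk2b and Olfm1, all higher, where 12.9% of all tested genes were higher and 10.2% lower without overlap.

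**Figure D5:**
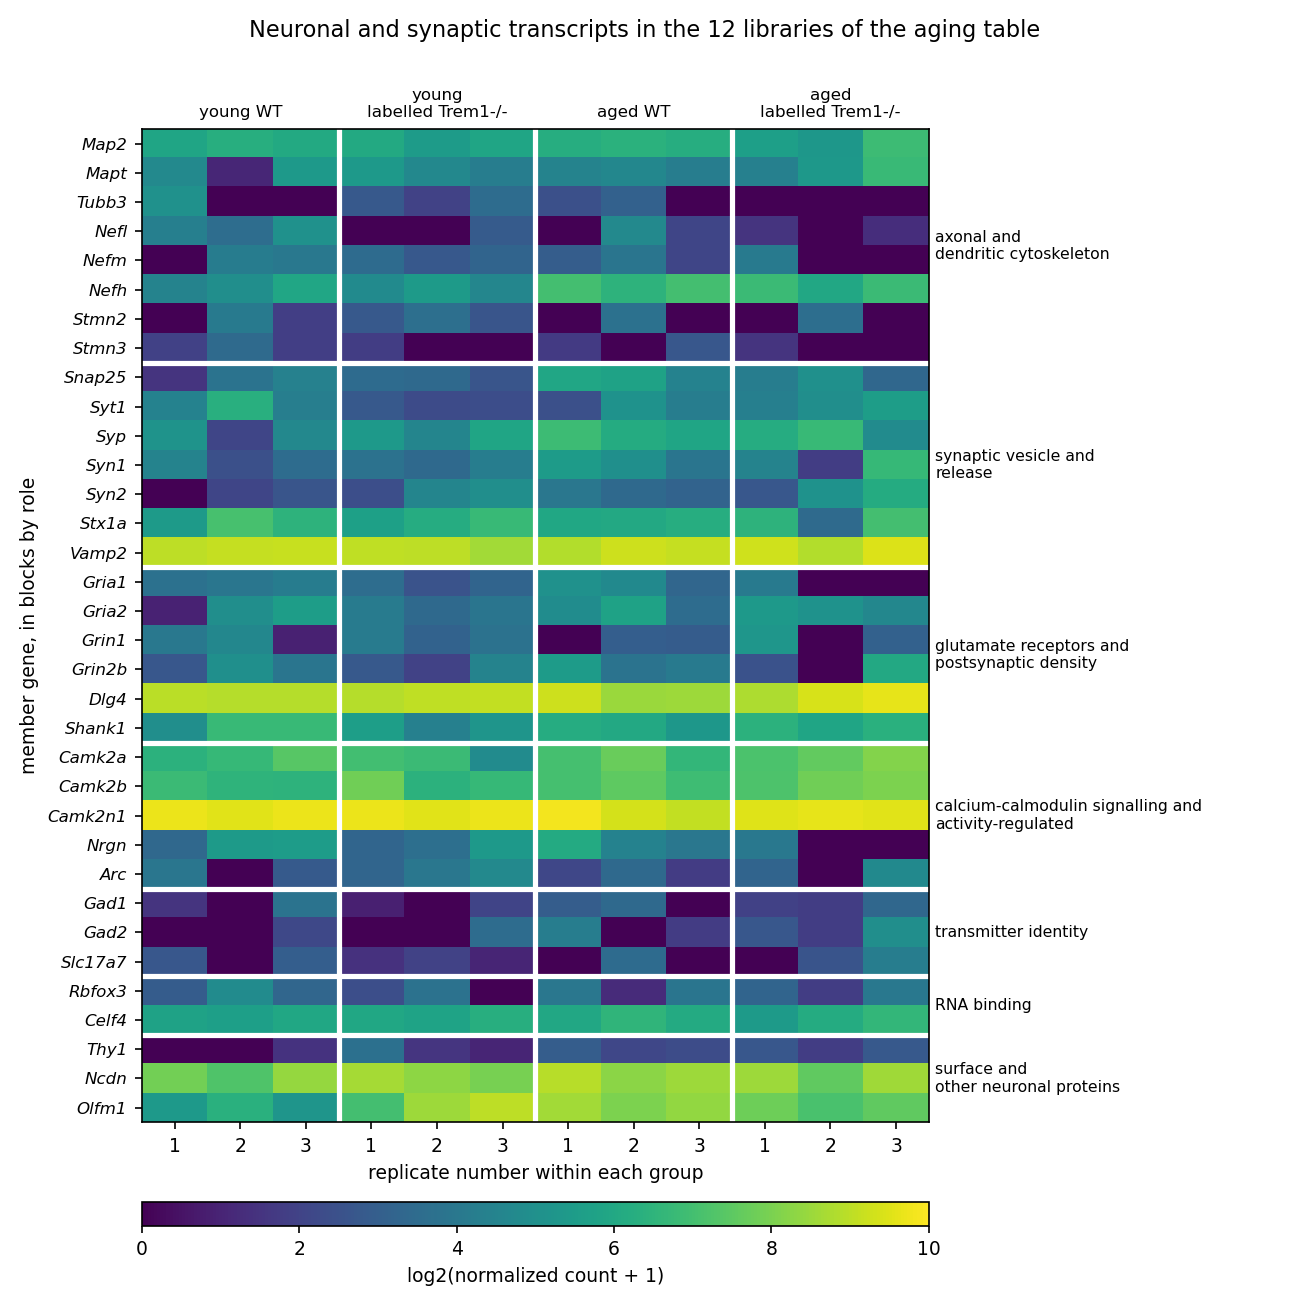
Level of each of the 34 members (rows, in blocks by role) in each of the 12 libraries of the aging table (columns), as log2(normalized count + 1). Olfm1 is lowest in the 3 young wild type libraries (35.8 to 79.8 normalized counts), and Vamp2, Dlg4 and Camk2n1 are high in all 12.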

How the data were processed

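Total RNA of primary brain microglia was sequenced in 21 libraries, 3 a group, grouped by the genotype and age of the labels. Per the submitters' processing notes, the tools were fastp, HISAT2 2.0.5, featureCounts 1.5.0-p3 and DESeq2 1.20.0 on GRCm38. The annotation release and strandedness are not given in the sources used here. The deposited per-library values are a signal, reads divided by a size factor by the authors, made separately for each table. The deposited tables also hold the authors' log2 fold change and its error, a Wald score, and p-values with adjusted p-values. Scaled by what 1 read is worth in its library, values were whole within 0.05 reads for at least 99.986% of values, and count tests on these reads were alternatives.

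Symbols were matched to GENCODE M21 (53749 of 54532) for lengths and positions. Each table was fitted in R 4.3.3 with limma 3.58.1, with trended and robust variances, on the log2 scale after adding 1, over genes with a mean of at least 10, with all groups in 1 fit and Benjamini-Hochberg adjustment over all genes tested, at a threshold of 0.05. Since the pseudocount of 1 understates changes of low genes, bounds against 3 reads a library or ratios of reads with exact intervals are given for members with a group at 0 to 3 reads where the other group was higher. Intervals cover counting error only. An exact permutation test of 3 against 3 cannot go below p = 0.1 and was not used. Members and lists were chosen with earlier results of these data known. Named members are those past the threshold, those with the largest rise, largest fall and smallest p in a comparison, and the 2 most abundant of each role group, and others were named after their values were seen. Some genes of the other neuronal list are not reported here. Alternatives were pseudocounts of 0.5 and 5, filters of none and 50, TMM scaling, limma without trend and robust, only the groups compared, a replicate block, edgeR 4.0.16, DESeq2 1.42.0 and each library left out.

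Residuals of same-numbered libraries correlated at a median of 0.0119 (aging) and 0.0116 (5XFAD table), against -0.0173 and -0.0117 for different-numbered ones. Same-numbered libraries of 5XFAD and 5XFAD Trem1+/- correlated at 0.203, 0.0594 and 0.0788. The highest value between different-numbered libraries of that table was 0.0572. Different-numbered libraries of the aging table reached 0.174, above the 0.0594 and 0.0788. The numbers may pair these transgenic groups, which these values do not settle, and the replicate block was run as an alternative. Replicates differed by a chi-square of 12.3 to 46.2 per degree of freedom, so that no library was a duplicate. On simulated data with 17025 genes for 5XFAD against wild type, 4-fold changes were called for 8% of genes with a mean of 10 to 100 and 88% of those above, and 16-fold changes for 20% and 100%. With 16086 genes for aged against young wild type, 4-fold changes were called for 4% and 96%. Each of these shares rests on 25 changed genes. Fewer genes were changed in the simulations than were called in aged wild type (1394) or in 5XFAD (337). The adjustment was thus stricter there than in the data, and the shares are a rough guide only.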

Additional observations from a re-analysis of the deposited data

Results flagged for a closer look

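The age change of Olfm1 differed between the labelled genotypes in a test of the difference itself. The interaction, labelled Trem1-/- minus wild type, was -3.38 ± 0.59 on the log2 scale (limma adjusted p = 0.00369), and 0.0947 without trended and robust variances. Olfm1 rose from 35.8 to 79.8 normalized counts in young wild type to 259 to 394 in aged wild type. In the libraries labelled Trem1-/- it was at 127 to 518 in the young and 141 to 222 in the aged. Trem1 itself was at 89.4 to 244 in these libraries, 188 to 269 in aged wild type and 7.65 to 25.2 in young wild type. The neutrophil sum was 8487 to 15791 in young wild type, 26710 to 65658 in the libraries labelled young Trem1-/-, 67642 to 131458 in aged wild type and 56290 to 141376 in the libraries labelled aged Trem1-/-. The monocyte sum was 1869 to 4148, 11406 to 27789, 14027 to 24581 and 13642 to 17743 in the same order. The immediate early genes, of which 2 of 12 had a called interaction below 0, summed to 10188 to 10704, 10133 to 14897, 9970 to 16299 and 8944 to 11840. The part of these lists in the difference was not tested.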

How the results depend on the processing

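Of 89 counts of called members under other settings, 74 stayed within 1.5 times the reported count. Without trend and robust estimation, limma called 2 members in 5XFAD against wild type, 0 in 5XFAD Trem1+/- against wild type, 1 in aged against young wild type, and 0 in the comparisons of libraries labelled young and aged Trem1-/- with young wild type and in the interaction. That setting took the calls of Shank1 (adjusted p = 0.0710), Camk2a (0.156) and Olfm1 (0.169) in 5XFAD. A fit of only the groups compared called 3 in 5XFAD, without Arc (0.0517) and Olfm1 (0.0656). For 5XFAD Trem1+/- against wild type, no filter gave 4, a mean of at least 50 gave 1, and DESeq2 gave 6. DESeq2 called 2 members in labelled young Trem1-/- against young wild type, 1 between the ages of labelled Trem1-/-, 3 in labelled aged Trem1-/- against young wild type and 2 in the interaction. With the replicate block the count for 5XFAD Trem1+/- against wild type was 4 in place of 2, and it was within 1.5 times elsewhere, with 7 in 5XFAD. Over all tested genes, DESeq2 called 778 against 337 in 5XFAD, 1061 against 473 in 5XFAD Trem1+/- against wild type and 12 against 0 between both transgenic groups, where limma without trend and robust estimation called 32, 27 and 0, no filter 795, 952 and 29, and the replicate block 628, 848 and 0. In the aging table DESeq2 called 605 against 275 between the ages of labelled Trem1-/-, 648 against 415 in labelled young Trem1-/-, 23 against 0 in labelled aged Trem1-/- against aged wild type and 769 against 408 in the interaction, and limma without trend and robust estimation called 12, 97, 1 and 5, with 581 in place of 1394 in aged wild type and 369 in place of 1073 in labelled aged Trem1-/- against young wild type. For labelled aged Trem1-/- against aged wild type, DESeq2 gave an adjusted p to only 4547 genes. Also over all tested genes, edgeR called 213 in 5XFAD, and only the groups compared gave 649 in labelled young Trem1-/-. With 1 library left out, the counts over all tested genes were 134 to 368 in 5XFAD (lowest without 5XFAD replicate 1), 115 to 547 in 5XFAD Trem1+/- against wild type (lowest without 5XFAD Trem1+/- replicate 3), 731 to 1612 in aged wild type (lowest without aged wild type replicate 3), 223 to 498 in labelled young Trem1-/- (lowest without its replicate 2), 92 to 365 between the ages of labelled Trem1-/- and 666 to 1145 in labelled aged Trem1-/- against young wild type (both lowest without labelled aged Trem1-/- replicate 2), and 197 to 790 in the interaction (lowest without aged wild type replicate 3 and highest without replicate 2). With 1 library left out, the member counts were 3 to 6 in 5XFAD, 1 to 3 in 5XFAD Trem1+/-, 1 to 3 in aged wild type and 0 to 2 in labelled aged Trem1-/- against young wild type. The member median in 5XFAD was 0.88 at a pseudocount of 5 and 0.77 with a mean of at least 50, and with 1 library left out it was -0.20 to 0.32 in labelled aged Trem1-/- against aged wild type and -0.62 to 0.17 in the interaction. Syn1 in 5XFAD was at -1.75 to 0.64 with 1 library left out, the highest without 5XFAD replicate 2. In aged wild type, Nefh missed the threshold with no filter (adjusted p = 0.0718) and without trend and robust estimation (0.0525), and Syp with the latter (0.142), with only the groups compared (0.0606) and with edgeR (0.0939). Except where the samples or genes in the fit changed, the cause was not tested. Most members had fewer than 100 normalized counts, where the simulated 4-fold changes were called least.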
